A study of Mus musculus with 6 samples.

Results

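Rab GTPases and DENN exchange factors are the switches of membrane traffic, and 62 of the 14481 genes in the count table belonged to them. They were chosen by symbol alone: 15 genes whose symbol begins with Dennd, and 47 whose symbol is Rab and a number with at most a letter after it. Another 11 symbols that begin with Rab and a digit name other kinds of gene, such as Rab11fip1, a binding partner of Rab11, and were left out. The values come from polyadenylated RNA of sorted wild-type mouse CD8+ T cells, sequenced as bulk libraries at day 3 of culture. In both groups the cells were activated with plate-bound antibody to CD3, soluble antibody to CD28 and interleukin 2, in medium with fetal bovine serum. The groups are STAT3+ CM, with 3 libraries from cells that spent their last 2 days in conditioned medium (CM) of pSTAT3+ astrospheres, and STAT3- CM, with 3 libraries from cells given medium of pSTAT3- astrospheres instead. No group lacked CM, and the state of STAT3 describes the astrospheres that made the medium, not the T cells. The labels do not tie replicates to separate mice or cultures, so p-values measure the spread between these libraries, which may be technical.

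A Rab protein is a small GTPase that sits on a membrane when it holds GTP and is drawn back into the cytosol when it holds GDP. A guanine nucleotide exchange factor (GEF) loads it with GTP, a GTPase-activating protein (GAP) ends the active state, and effectors bind the GTP form to tether, move or fuse vesicles. DENN proteins are a large family of Rab GEFs, and work with human proteins has paired each branch with its own Rabs. In cytotoxic T cells this traffic carries receptors to and from the surface and brings lytic granules, loaded with perforin and granzymes, to the contact with a target cell.

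The libraries held 43346089 to 53630514 read counts each. CPM below are read counts scaled to a common depth by library total and TMM factor, and a log2 fold change is STAT3+ CM over STAT3- CM. The 10 CD8+ T cell markers checked, Cd8a and Cd3e among them, summed to 4118 to 5209 CPM in STAT3+ CM and 4141 to 4390.0 CPM in STAT3- CM. The 3 helper T cell markers summed to 3.12 to 5.24 CPM in STAT3+ CM and 2.85 to 4.13 CPM in STAT3- CM. Summed markers of macrophages (4 of 10 listed had a row), natural killer cells (5 of 6) and astrocytes (3 of 8) overlapped between the groups. So did Kit, the 1 of 6 mast cell markers with a row. The macrophage sum, of mean 160 CPM in STAT3+ CM and 130 CPM in STAT3- CM, was mostly Ly6c2, at 155 and 124 CPM. The natural killer sum, of mean 134 and 132 CPM in the same order, was mostly Eomes, at 124 and 122 CPM. Both sums therefore say little of the other markers in them. Cd79b, the 1 B cell marker used, stood at 10.9 to 11.8 CPM in STAT3+ CM and 7.40 to 10.7 CPM in STAT3- CM. Over the 62 members, the first principal component, with 40.3% of their variance, set STAT3+ CM replicate 2 (2.41) and STAT3- CM replicate 3 (-2.38) apart from the other 4 libraries, which lay between -0.175 and 0.190. In bulk RNA, fewer cells of a type and less RNA per cell cannot be told apart.

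The general Rabs of the secretory and endosomal routes were the most abundant members. Levels of different genes are compared per kb of annotated exon, as mean ± SD over the 6 libraries. Rab5c, of early endosomes, stood at 84.6 ± 8.73 CPM per kb and Rab7, of late endosomes and lysosomes, at 81.2 ± 3.74, and the ranges of these 2 genes over the libraries overlapped. Rab10, which takes part in exocytic and recycling traffic, stood at 59.6 ± 3.56 CPM per kb. Next came Rab1b at 58.3 ± 4.47 and Rab2a at 55.3 ± 6.60, both of traffic between endoplasmic reticulum and Golgi. The ranges of Rab10, Rab1b and Rab2a also overlapped, so their order is not resolved by these libraries. Rab27a, the Rab that docks lytic granules, stood at 27.0 ± 5.51 CPM per kb, close to Rab21 at 26.7 ± 0.834 and Rab11a at 28.3 ± 1.90. The most abundant DENN gene was Dennd2d at 23.0 ± 1.18, and next by mean was Dennd4a at 12.3 ± 4.55 CPM per kb. Dennd5a averaged 7.39 ± 2.62 CPM per kb over both groups, and its range over the libraries, 4.68 to 10.5, took in that of Dennd4b, 5.91 to 8.204. At the low end stood Rab44 at 0.105 ± 0.0751, Dennd5b at 0.141 ± 0.0399 and Rab15 at 0.169 ± 0.0464.

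**Figure D1:**
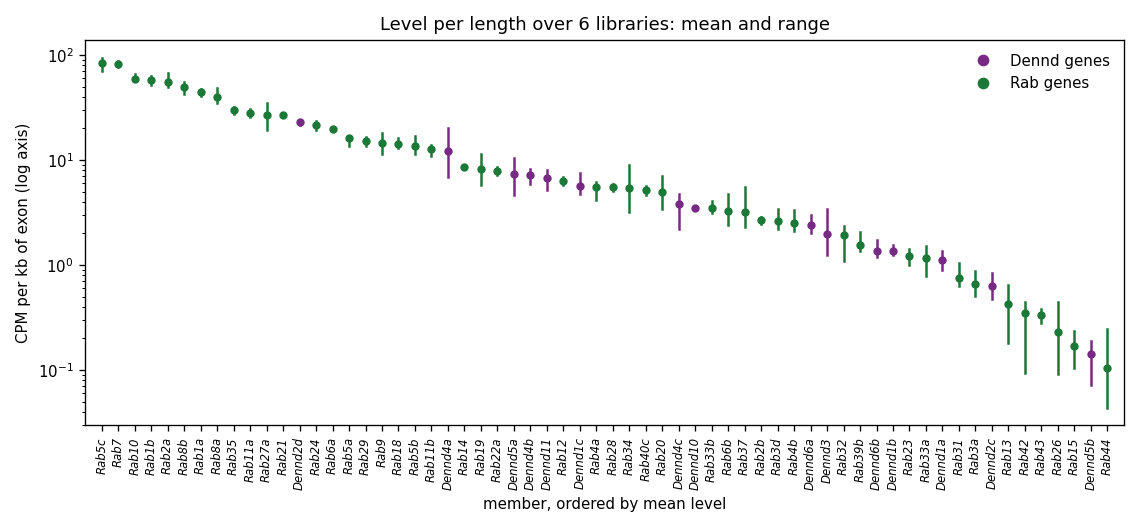
Level of each of the 62 members per kb of exon (CPM per kb, log axis), ordered by mean; points are means and lines the range over the 6 libraries. Rab5c and Rab7 lead at 84.6 and 81.2 CPM per kb, and Dennd2d is the highest Dennd gene at 23.0.

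The study asks how the products secreted by pSTAT3+ astrospheres, set against those of pSTAT3- astrospheres, act on CD8+ T cells. Among the members Dennd5a stood lower in STAT3+ CM, and it had the smallest p of all 14319 genes tested without passing the threshold. Rab20 stood higher and Rab27a lower. Point values lay within a 1.25-fold change for 85.1% of Rab genes and 80% of Dennd genes, against 83.2% of all genes. By edgeR's quasi-likelihood test 0 of 62 members passed an adjusted p of 0.05, and percent called over all genes was 0%. DESeq2 called 1 member, Dennd5a, where it called 0.335% of all genes. At an unadjusted edgeR p under 0.05 stood 5 members, or 8.06%, Rab20, Rab44 and Rab37 higher and Dennd5a and Rab27a lower. Over all genes 3.64% stood there, 1.34% higher and 2.3% lower. The groups did not overlap in 8 members, or 12.9%: Rab20, Rab44, Rab11a and Rab28 were higher, and Dennd5a, Rab27a, Rab26 and Rab39b lower. Over all genes 7.95% had groups that did not overlap, 3.78% higher and 4.18% lower. The 95% interval of the log2 fold change lay within a 1.5-fold change in either direction for 39 of 62 members, or 62.9%, against 53.5% of all genes. It excluded a 2-fold change in either direction for 53 of the 62, or 85.5%, against 79.2% of all genes.

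Dennd5a encodes a DENN protein that in human cells exchanges nucleotide on Rab39 and binds Rab6 at the Golgi. It stood at 45.0, 40.6 and 45.4 CPM in STAT3+ CM, against 91.0, 80.7 and 81.9 CPM in STAT3- CM. Each STAT3+ CM library was below each STAT3- CM library, and the means differed by several times the SD within either group. The means were 43.7 ± 2.65 CPM in STAT3+ CM and 84.5 ± 5.66 CPM in STAT3- CM (SD, n = 3 each). The log2 fold change was -0.95, with an SE of 0.12 and a 95% interval of -1.22 to -0.69, and edgeR gave an adjusted p of 0.0860. DESeq2 gave -0.95 (SE 0.13) with an adjusted p of 7.54e-09. Leaving out each library in turn kept the log2 fold change between -0.99 and -0.90, while the adjusted p by edgeR ran from 0.0341 to 0.644. The threshold was passed without STAT3- CM replicate 3 (adjusted p = 0.0341 by edgeR), where 18 genes passed in all, and not when any other single library was left out. Its rank by p ran from 1 to 7 when each library was left out in turn. Dendritic cell markers also stood lower in STAT3+ CM: the 6 of 12 used here summed to 87.6 to 112 CPM in STAT3+ CM and 123 to 177 CPM in STAT3- CM. Most of that sum was Cd74 and Batf3, so it says little of the other markers in it. Batf3 stood at 42.4 ± 9.03 CPM in STAT3+ CM and 46.8 ± 9.61 CPM in STAT3- CM. Of these 6 genes 4, or 66.7%, had groups that did not overlap, against 7.95% of all genes. They were the MHC class II genes H2-Aa, H2-Eb1 and Cd74 and the transcription factor gene Zbtb46. Cd74 stood at 38.9 ± 4.98 CPM in STAT3+ CM and 74.7 ± 22.1 CPM in STAT3- CM and H2-Aa at 1.26 ± 0.471 CPM in STAT3+ CM and 4.15 ± 1.53 CPM in STAT3- CM, with adjusted p-values by DESeq2 of 0.0124 and 0.00435, and edgeR called 0 of the 6. Batf3 and Itgax, which encodes CD11c, overlapped, Itgax at 0.920 ± 0.175 CPM in STAT3+ CM and 0.955 ± 0.167 CPM in STAT3- CM. The 6 other markers listed (Clec9a, Clec10a, Cd209a, Flt3, Siglech, Xcr1) had no row in the count table, whose lowest gene total was 40. The part of such cells in the Dennd5a difference was not tested.

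Start-site windows are shown for Dennd5a and Rab20, the DENN and the Rab gene with the smallest p, and for Dennd5b, the closest relative of Dennd5a, for comparison. Each runs 250 bases before to 50 bases after a RefSeq gene start on GRCm38.p6, written 5′ to 3′ along the gene, and capitals mark matches to the motifs searched. The windows are chr7:109960421-109960720 (minus strand) for Dennd5a, chr6:149101631-149101930 (minus strand) for Dennd5b and chr8:11478591-11478890 (minus strand) for Rab20.
Dennd5a: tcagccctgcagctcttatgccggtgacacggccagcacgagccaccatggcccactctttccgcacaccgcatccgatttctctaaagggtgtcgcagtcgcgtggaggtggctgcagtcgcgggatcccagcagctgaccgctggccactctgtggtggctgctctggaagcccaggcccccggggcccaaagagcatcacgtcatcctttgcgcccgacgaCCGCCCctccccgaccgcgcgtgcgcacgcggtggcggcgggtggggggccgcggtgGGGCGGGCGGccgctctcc
Dennd5b: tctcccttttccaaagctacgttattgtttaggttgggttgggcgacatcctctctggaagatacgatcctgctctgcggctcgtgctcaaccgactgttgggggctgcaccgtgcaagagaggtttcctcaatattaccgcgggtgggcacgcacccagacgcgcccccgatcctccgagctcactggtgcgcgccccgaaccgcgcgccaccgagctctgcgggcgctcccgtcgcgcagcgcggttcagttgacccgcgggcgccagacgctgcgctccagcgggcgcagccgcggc
Rab20: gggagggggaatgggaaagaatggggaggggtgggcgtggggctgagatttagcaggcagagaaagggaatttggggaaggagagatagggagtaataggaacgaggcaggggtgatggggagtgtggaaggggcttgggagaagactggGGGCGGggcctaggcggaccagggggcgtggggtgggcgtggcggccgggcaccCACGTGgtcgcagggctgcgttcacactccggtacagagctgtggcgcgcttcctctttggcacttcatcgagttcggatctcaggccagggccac
The motifs were the STAT site TTCNNNGAA, the E-box CACGTG that lysosomal genes often hold, the cyclic AMP response element TGACGTCA and the GC box GGGCGG. Both strands were read, and overlapping matches each counted. The Dennd5a window printed held 3 GC boxes, the Rab20 window 1 GC box and 1 E-box, and the Dennd5b window held none of the 4 motifs, and its GC content was 66.3%, against 70.7% for Dennd5a and 64.3% for Rab20. RefSeq has a further Dennd5a start, whose window, chr7:109960373-109960672, overlaps the printed one and held 4 GC boxes. Windows were found for 55 of the 62 members. The GC box stood in 42 of these 55, or 76.4%, against 67.6% of all genes of the table with a window. The STAT site stood in 12.7% of members and 8.21% of all genes, the E-box in 12.7% and 11.6%, and the cyclic AMP element in 1.82% and 3.62%. A match describes letters in the window and says nothing of binding.

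**Figure D2:**
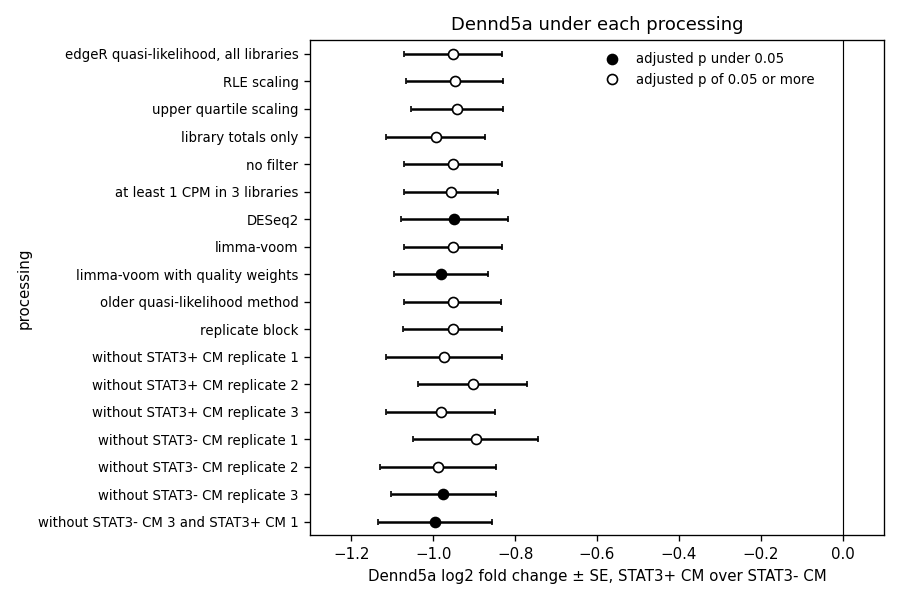
Log2 fold change of Dennd5a (STAT3+ CM over STAT3- CM, point) with its SE (bar) under each way of processing the counts; filled points have an adjusted p under 0.05. All values lie between -1.0 and -0.90, and 4 of the 17 alternatives pass the threshold.

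The relative of Dennd5a with the same domain layout, Dennd5b, was near the low end and differed in pattern between libraries. It stood at 1.30, 3.39 and 2.46 CPM in STAT3+ CM, against 2.98, 2.85 and 2.32 CPM in STAT3- CM (log2 fold change -0.20, 95% interval -0.91 to 0.51). STAT3+ CM replicate 1 was its lowest library and STAT3+ CM replicate 2 its highest, so the groups overlapped. Among the Rabs tied to the DENND5 branch, Rab6a, of Golgi traffic, stood at 74.4, 70.0 and 71.7 CPM in STAT3+ CM, against 75.2, 75.3 and 73.4 CPM in STAT3- CM (log2 fold change -0.050, 95% interval -0.29 to 0.19). Its relative Rab6b stood at 17.5, 14.2 and 17.4 CPM in STAT3+ CM, against 11.99, 13.1 and 23.7 CPM in STAT3- CM (log2 fold change 0.011, 95% interval -0.54 to 0.56), with STAT3- CM replicate 3 highest and the other 2 of that group lowest. The Rab39 that DENND5A acts on is not among the 62 members. Its relative Rab39b stood at 4.80, 4.66 and 5.11 CPM in STAT3+ CM, against 5.21, 6.94 and 5.26 CPM in STAT3- CM. The 3 STAT3+ CM libraries of Rab39b lay just below those of STAT3- CM (log2 fold change -0.26 with an SE of 0.20, edgeR adjusted p = 0.989). Without STAT3- CM replicate 2 its log2 fold change was -0.11.

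Summed over the 15 Dennd genes, the libraries held 695, 539.9 and 681 CPM in STAT3+ CM, against 678, 703 and 876 CPM in STAT3- CM, so the groups overlapped. Across these genes 12 of 15 log2 fold changes were negative, with a median of -0.17, against a median of 0.00076 and 50.2% positive over all genes. Apart from Dennd5a, 0 had an unadjusted p under 0.05. STAT3- CM replicate 3 was the highest library for 7 of the 15 and STAT3+ CM replicate 2 the lowest for 7. Over all genes the first was highest for 22.9% and the second lowest for 22.4%. Without STAT3- CM replicate 3 the split was 8 negative and 7 positive with a median of -0.051, and without STAT3+ CM replicate 2 it was 10 and 5 with -0.090. The median spread within groups, as an SD of log2 CPM, was 0.23 over Dennd genes, 0.157 over Rab genes and 0.223 over all genes.

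**Figure D3:**
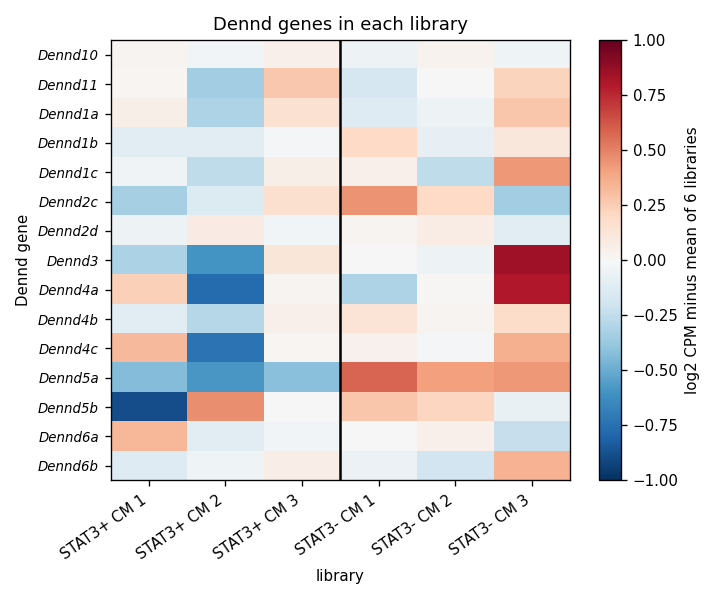
Log2 CPM of each Dennd gene (rows) in each library (columns) minus its mean over the 6 libraries; red is above and blue below the mean, and colours saturate at 1. Dennd5a is below its mean in all 3 STAT3+ CM libraries and above it in all 3 STAT3- CM libraries, while Dennd3 and Dennd4a are highest in STAT3- CM replicate 3.

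The DENND1 branch acts on Rab35, a Rab of fast recycling from endosomes to the surface. Dennd1a stood at 17.9, 13.8 and 19.1 CPM in STAT3+ CM, against 15.7, 16.5 and 20.8 CPM in STAT3- CM (log2 fold change -0.060, 95% interval -0.45 to 0.33). Dennd1b, which in mouse T cells takes part in removing the T cell receptor from the surface, stood at 24.2, 24.4 and 25.8 CPM in STAT3+ CM, against 30.0, 24.8 and 28.3 CPM in STAT3- CM. Only STAT3+ CM replicate 3 reached above the lowest STAT3- CM library (log2 fold change -0.16, 95% interval -0.45 to 0.13), and the log2 fold change was -0.096 without STAT3- CM replicate 1. Dennd1c, another member of the branch, stood at 28.0, 24.0 and 29.8 CPM in STAT3+ CM, against 29.7, 24.0 and 38.7 CPM in STAT3- CM (log2 fold change -0.17, 95% interval -0.57 to 0.23). The groups overlapped in all 3 genes. Rab35 itself stood at 85.4, 89.7 and 80.1 CPM in STAT3+ CM, against 88.7, 86.6 and 77.5 CPM in STAT3- CM. Its 95% interval, -0.25 to 0.27 around a log2 fold change of 0.013, leaves room for small changes either way.

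The DENND2 branch is paired with Rab9, which returns receptors from late endosomes to the Golgi. Dennd2d was abundant and nearly level, at 152, 167 and 155 CPM in STAT3+ CM, against 161, 166 and 146 CPM in STAT3- CM (log2 fold change 0.00070, 95% interval -0.26 to 0.26). Dennd2c, at 3.33, 3.82 and 4.69 CPM in STAT3+ CM, against 5.74, 4.83 and 3.29 CPM in STAT3- CM, was more variable (log2 fold change -0.22, 95% interval -0.78 to 0.35). STAT3- CM replicate 3 was its lowest library and STAT3- CM replicate 1 its highest, and without the highest the log2 fold change was -0.035. Rab9 stood at 31.7, 25.6 and 25.1 CPM in STAT3+ CM, against 20.0, 24.2 and 27.1 CPM in STAT3- CM. STAT3- CM replicates 1 and 2 were its lowest libraries, and replicate 3 of that group lay among those of STAT3+ CM (log2 fold change 0.21 with an SE of 0.16, edgeR adjusted p = 0.989). Its log2 fold change was 0.091 without STAT3+ CM replicate 1 and 0.098 without STAT3- CM replicate 1.

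Dennd3, the exchange factor of Rab12 in degradation of the transferrin receptor, stood at 8.59, 7.04 and 11.6 CPM in STAT3+ CM, against 10.6, 10.3 and 19.3 CPM in STAT3- CM (log2 fold change -0.56 with an SE of 0.28, edgeR adjusted p = 0.989). The difference followed STAT3- CM replicate 3, and without it the log2 fold change was -0.20. Rab12 stood at 17.5, 20.2 and 18.3 CPM in STAT3+ CM, against 19.1, 18.2 and 21.1 CPM in STAT3- CM. Its groups overlapped, with log2 fold change -0.062, 95% interval -0.37 to 0.25.

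The DENND4 genes are paired with Rab10. Dennd4a, the most abundant of them and a gene first described as a MYC promoter-binding factor, stood at 228, 113 and 198 CPM in STAT3+ CM, against 156, 196 and 337 CPM in STAT3- CM. The groups overlapped, STAT3- CM replicate 3 was highest and STAT3+ CM replicate 2 lowest, and the log2 fold change of -0.35 (SE 0.31) was 0.031 without the first and -0.11 without the second. Dennd4c stood at 39.3, 18.8 and 31.8 CPM in STAT3+ CM, against 32.4, 31.2 and 40.1 CPM in STAT3- CM, again lowest in STAT3+ CM replicate 2. Its log2 fold change of -0.20 (SE 0.23) was 0.041 without that library. Dennd4b varied less, at 40.2, 35.7 and 44.9 CPM in STAT3+ CM, against 47.8, 44.3 and 49.5 CPM in STAT3- CM (log2 fold change -0.23 with an SE of 0.13, edgeR adjusted p = 0.989). STAT3+ CM replicate 3 lay just above the lowest STAT3- CM library, so its groups overlapped by a single library, and the log2 fold change was -0.15 without STAT3+ CM replicate 2. Rab10 stood at 230.0, 214 and 196 CPM in STAT3+ CM, against 204, 213 and 198 CPM in STAT3- CM (log2 fold change 0.058, 95% interval -0.21 to 0.32).

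The DENND6 branch acts on Rab14, of recycling and Golgi to endosome traffic. Dennd6a stood at 25.0, 18.4 and 19.5 CPM in STAT3+ CM, against 19.9, 20.6 and 17.0 CPM in STAT3- CM (log2 fold change 0.13, 95% interval -0.23 to 0.49). Dennd6b stood at 7.31, 7.76 and 8.38 CPM in STAT3+ CM, against 7.68, 7.0 and 10.2 CPM in STAT3- CM (log2 fold change -0.082, 95% interval -0.51 to 0.35). In both genes the groups overlapped. Rab14 was among the steadiest members, at 117, 115 and 118 CPM in STAT3+ CM, against 119, 123 and 110.5 CPM in STAT3- CM (log2 fold change -0.012, 95% interval -0.26 to 0.24). Dennd10, which in human cells acts on late endosomes and has been tied to Rab27, was as steady, at 22.1, 21.4 and 22.5 CPM in STAT3+ CM, against 21.04, 22.3 and 21.1 CPM in STAT3- CM, with log2 fold change 0.035, 95% interval -0.24 to 0.31. Dennd11 stood at 52.6, 40.8 and 62.5 CPM in STAT3+ CM, against 46.3, 51.9 and 60.7 CPM in STAT3- CM, lowest in STAT3+ CM replicate 2 and highest in replicate 3 of the same group (log2 fold change -0.026, 95% interval -0.40 to 0.35).

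Among the Rabs, those of regulated secretion held the widest values. Of 6 genes of that role, 3 had an unadjusted p under 0.05, where 3.64% of all genes did, and 0 passed after adjustment by edgeR or DESeq2. Of these 3, Rab44 and Rab37 were higher in STAT3+ CM and Rab27a lower. The roles were chosen with earlier results of these data known, so the share only describes these genes. Low counts of Rab44 and Rab26 also widen the values. Rab27a, which docks lytic granules at the plasma membrane and whose loss leaves mouse and human cytotoxic T cells unable to release them, stood at 105, 74.2 and 89.2 CPM in STAT3+ CM, against 108, 116 and 136 CPM in STAT3- CM. All STAT3+ CM libraries lay below all STAT3- CM libraries, by a narrow margin between STAT3+ CM replicate 1 and STAT3- CM replicate 1. The means were 89.4 ± 15.2 CPM in STAT3+ CM and 119.95 ± 14.4 CPM in STAT3- CM (SD, n = 3 each), with log2 fold change -0.42 with an SE of 0.15, edgeR adjusted p = 0.989, and DESeq2 adjusted p = 0.820. Leaving out each library in turn gave log2 fold changes of -0.55 to -0.31.

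Rab37, a Rab of secretory granules, stood at 29.3, 16.4 and 15.5 CPM in STAT3+ CM, against 12.3, 13.1 and 15.7 CPM in STAT3- CM (log2 fold change 0.57 with an SE of 0.24, edgeR adjusted p = 0.989). A single library set its size: STAT3+ CM replicate 1 lay far above the rest, and without it the log2 fold change was 0.22. Rab44, a large Rab of granule-bearing blood cells, was near the floor, with 19, 27 and 69 reads in STAT3+ CM, against 10, 12 and 19 reads in STAT3- CM. STAT3+ CM replicate 3 was highest, and its log2 fold change of 1.42 (SE 0.49) was 0.83 without that library. Rab26, of secretory granule maturation, was also low, with 23, 11 and 33 reads in STAT3+ CM, against 29, 31 and 58 reads in STAT3- CM (log2 fold change -0.86 with an SE of 0.41, edgeR adjusted p = 0.989). STAT3- CM replicate 3 had the most reads of Rab26, and without it the log2 fold change was -0.47. The secretory relatives Rab3d and Rab3a had log2 fold changes of 0.021 (SE 0.23) and 0.090 (SE 0.30), and their groups overlapped.

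Rab20 was the Rab with the smallest p among the 47, and its groups did not overlap. It takes part in maturation of endosomes and phagosomes. It stood at 7.36, 9.90 and 8.16 CPM in STAT3+ CM, against 5.65, 5.19 and 4.76 CPM in STAT3- CM, so every STAT3+ CM library lay above every STAT3- CM library. The means were 8.47 ± 1.30 CPM in STAT3+ CM and 5.203 ± 0.444 CPM in STAT3- CM (SD, n = 3 each), with log2 fold change 0.70 with an SE of 0.19, edgeR adjusted p = 0.810, and DESeq2 adjusted p = 0.101. Log2 fold changes of 0.58 to 0.79 were found when each library was left out in turn. The Rab5 genes, which set the identity of early endosomes, lay near 0: Rab5a had log2 fold change 0.10, 95% interval -0.17 to 0.37. Rab5b had log2 fold change -0.082, 95% interval -0.44 to 0.27, and Rab5c log2 fold change 0.12, 95% interval -0.18 to 0.41. Rab21 and Rab22a, of integrin and early endosome traffic, had log2 fold changes of 0.029 and -0.028, and the low Rab31 0.29 (SE 0.25).

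**Figure D4:**
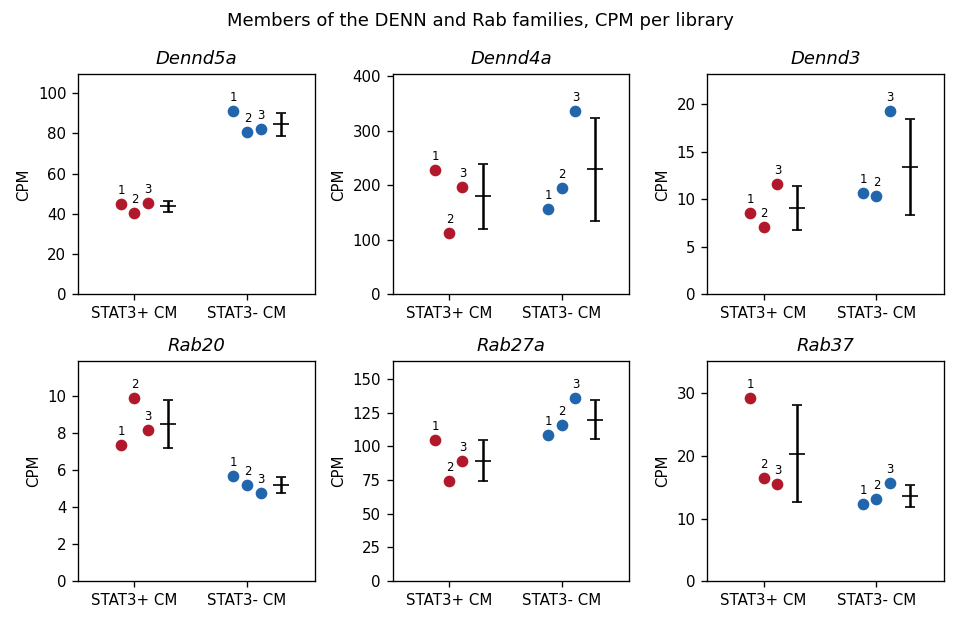
CPM of 6 members in each library, STAT3+ CM in red and STAT3- CM in blue, with the replicate number above each point and the mean ± SD of 3 libraries in black. Dennd5a, Rab20 and Rab27a have groups that do not overlap; Dennd4a and Dennd3 are highest in STAT3- CM replicate 3 and Rab37 in STAT3+ CM replicate 1.

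Recycling Rabs had positive values for 5 of 7, where 50.2% of all genes did, with a median of 0.055, and 0 had an unadjusted p under 0.05. Rab11a, which returns cargo to the surface from the recycling endosome, stood at 92.2, 88.1 and 86.7 CPM in STAT3+ CM, against 76.4, 84.7 and 80.1 CPM in STAT3- CM. Its groups did not overlap, and STAT3+ CM replicate 3 and STAT3- CM replicate 2 were close (log2 fold change 0.15 with an SE of 0.11, edgeR adjusted p = 0.989). Its relative Rab11b stood at 81.3, 77.9 and 67.6 CPM in STAT3+ CM, against 85.6, 78.7 and 74.6 CPM in STAT3- CM. STAT3- CM replicate 1 was its highest library and STAT3+ CM replicate 3 its lowest, and the groups overlapped (log2 fold change -0.075, 95% interval -0.35 to 0.20). Rab4a stood at 10.6, 10.7 and 10.7 CPM in STAT3+ CM, against 7.31, 8.69 and 10.9 CPM in STAT3- CM and was nearly identical across the STAT3+ CM libraries, while STAT3- CM replicate 3 lay above all of them (log2 fold change 0.25 with an SE of 0.18, edgeR adjusted p = 0.989). Without that library its log2 fold change was 0.41, and without STAT3- CM replicate 1 it was 0.12. Rab4b stood at 6.63, 4.83 and 4.21 CPM in STAT3+ CM, against 4.35, 4.15 and 5.52 CPM in STAT3- CM (log2 fold change 0.15, 95% interval -0.37 to 0.68). Its value was -0.054 without STAT3+ CM replicate 1, and the values of Rab35 and Rab15 also changed sign when single libraries were left out.

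Rabs of the endoplasmic reticulum and Golgi had positive values for 7 of 13 (median 0.011), and all 13 point values lay within a 1.25-fold change. Over all genes 83.2% did. Rab2a had the smallest p of them, at 144, 122 and 109.8 CPM in STAT3+ CM, against 105, 113 and 113 CPM in STAT3- CM (log2 fold change 0.18 with an SE of 0.13, edgeR adjusted p = 0.989). STAT3+ CM replicate 1 was its highest library, and without it the log2 fold change was 0.070. Its relative Rab2b stood at 11.9, 10.4 and 11.9 CPM in STAT3+ CM, against 11.5, 10.2 and 11.1 CPM in STAT3- CM (log2 fold change 0.060, 95% interval -0.29 to 0.41). Rab1a had log2 fold change 0.045, 95% interval -0.22 to 0.31 and Rab1b log2 fold change -0.014, 95% interval -0.29 to 0.26. Rab34, of the Golgi and of cilia, showed its spread inside a group, at 12.6, 11.7 and 14.6 CPM in STAT3+ CM, against 7.66, 9.88 and 21.5 CPM in STAT3- CM; STAT3- CM replicate 3 was its highest library and the other 2 of that medium its lowest.

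All 4 late endosome and lysosome Rabs had point values within a 1.25-fold change, where 83.2% of all genes did. The largest was that of Rab9, at a log2 fold change of 0.21. Rab7 stood at 228, 209 and 209.7 CPM in STAT3+ CM, against 212, 215 and 198 CPM in STAT3- CM (log2 fold change 0.048, 95% interval -0.21 to 0.30). The groups overlapped, as they did for Rab24, which is tied to autophagy (log2 fold change 0.092, 95% interval -0.17 to 0.36). The lysosome-related Rab29 and Rab32 had log2 fold changes of 0.085 (SE 0.14) and 0.13 (SE 0.28). Of the exocytic Rabs, Rab8a had 0.14 (SE 0.14) and Rab8b -0.034 (SE 0.13). The low Rab13, with 19, 40 and 59 reads in STAT3+ CM, against 42, 46 and 68 reads in STAT3- CM, had -0.45 (SE 0.37). Rab28, known from cilia, stood at 25.8, 26.6 and 25.6 CPM in STAT3+ CM, against 22.7, 23.9 and 24.5 CPM in STAT3- CM, with groups just apart (log2 fold change 0.13 with an SE of 0.12, edgeR adjusted p = 0.989). The remaining members (Rab15, Rab18, Rab19, Rab23, Rab33a, Rab33b, Rab40c, Rab42, Rab43) had log2 fold changes between -0.39 and 0.28, and their groups overlapped. Over all 47 Rab genes 29 values were positive, with a median of 0.045, where 50.2% of all genes were positive. STAT3+ CM replicate 1 was the highest library for 19 of the 47, and for 19.2% of all genes. Without that library 26 of the 47 were positive and the median was 0.0025.

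**Figure D5:**
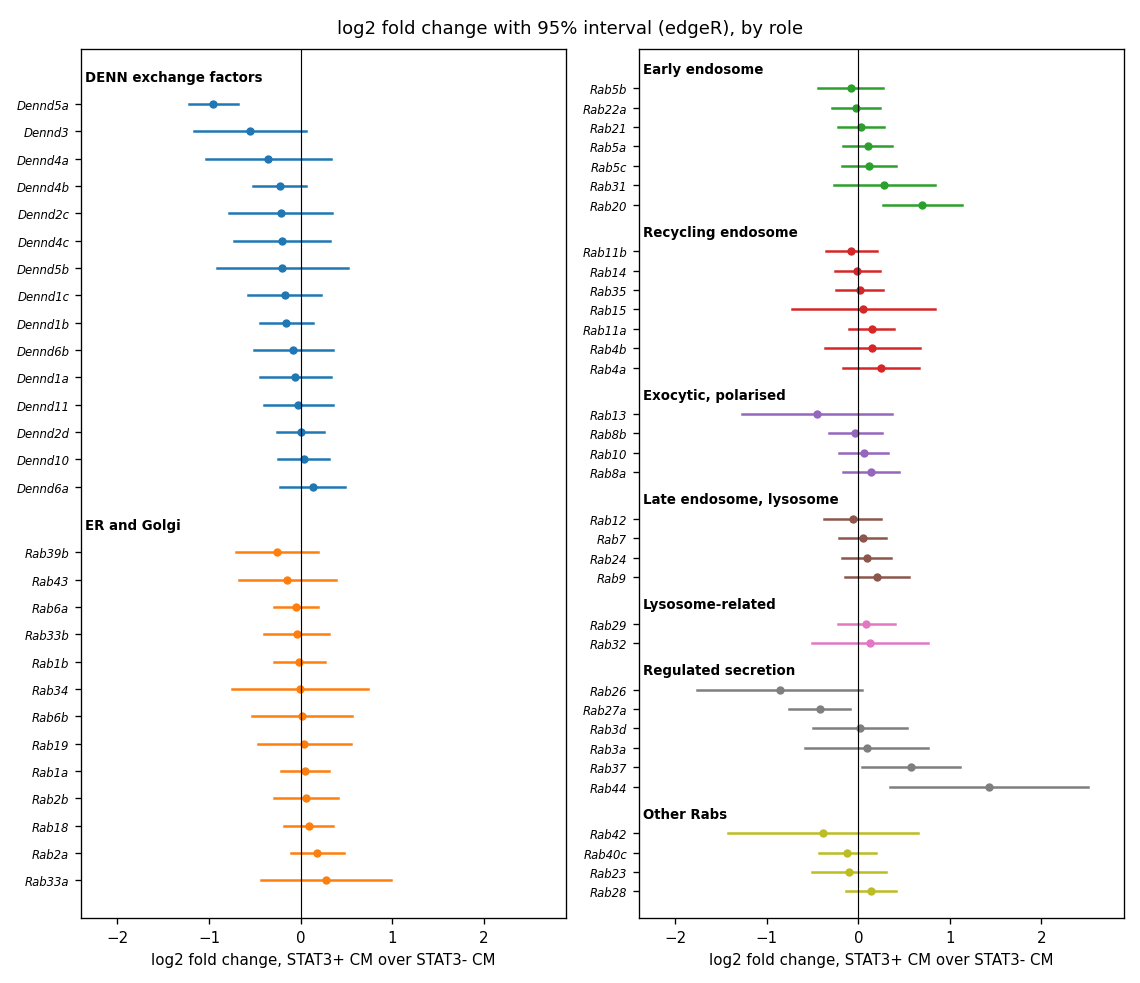
Log2 fold change (STAT3+ CM over STAT3- CM, points) with 95% interval (lines) from edgeR for all 62 members, grouped by role and sorted within it. Dennd5a at -0.95 and Rab20 at 0.70 lie clear of 0, Rab44 is far from 0 with a wide interval, and most others cross 0.

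The other genes of the Rab cycle gave 0 edgeR calls, where 0% of all genes were called. Exchange factors outside the Dennd symbols had positive values for 13 of 38 genes (median log2 fold change -0.070), with 1 unadjusted p under 0.05. Over all genes 50.2% were positive and 3.64% had an unadjusted edgeR p under 0.05. The 4 smallest p-values were those of C9orf72, Madd, Trappc10 and Smcr8, all with negative log2 fold changes. C9orf72, which forms a complex with Smcr8 that acts in autophagy and lysosome control, stood at 10.6 ± 1.52 CPM in STAT3+ CM and 15.2 ± 0.549 CPM in STAT3- CM (log2 fold change -0.52, SE 0.16), with no overlap of the groups. Smcr8 stood at 43.25 ± 10.7 CPM in STAT3+ CM and 55.0 ± 7.79 CPM in STAT3- CM (log2 fold change -0.34, SE 0.18), with groups that overlapped and a log2 fold change of -0.22 without STAT3+ CM replicate 1 and -0.22 without STAT3- CM replicate 1. Madd, a DENN protein that loads Rab3 and Rab27, stood at 68.8 ± 4.48 CPM in STAT3+ CM and 82.2 ± 8.17 CPM in STAT3- CM (log2 fold change -0.26, SE 0.12), and Trappc10, of a Golgi tethering complex, at 62.0 ± 6.26 CPM in STAT3+ CM and 73.4 ± 5.34 CPM in STAT3- CM (log2 fold change -0.24, SE 0.13). The 7 DENN-domain genes of that list, grouped after these values were seen, all had negative values, with a median of -0.26.

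GAPs of Rabs had positive values for 11 of 38 genes (median log2 fold change -0.082), where 50.2% of all genes did. Grtp1, a TBC-domain GAP, stood at 3.55 ± 1.10 CPM in STAT3+ CM and 1.10 ± 0.605 CPM in STAT3- CM (log2 fold change 1.69, SE 0.38). The adjusted p of Grtp1 was 0.563 with edgeR and 0.0115 with DESeq2, and it was the 1 gene of the Rab cycle lists that DESeq2 called. Over the whole table DESeq2 called 0.335% of genes. Tbc1d30, another TBC-domain GAP, stood at 2.72 ± 0.349 CPM in STAT3+ CM and 5.46 ± 1.68 CPM in STAT3- CM (log2 fold change -0.99, SE 0.27), with adjusted p-values of 0.746 in edgeR and 0.0732 in DESeq2. In both genes the groups did not overlap, and the directions were opposite. Tbc1d10c and Tbc1d10b, a pair of relatives, had log2 fold changes of 0.18 and -0.18, and that of Tbc1d10b was -0.081 without STAT3- CM replicate 3. Genes that attach lipid to Rabs or carry them in the cytosol had positive values for 9 of 12 genes (median log2 fold change 0.054), with values from -0.16 to 0.22. Their smallest p-values were those of Rabac1 (0.22), Icmt (-0.16), Chml (-0.15) and Chm (-0.12). Without STAT3+ CM replicate 2, Rabac1 was at 0.11 and Chm at -0.014, and without STAT3+ CM replicate 1 Icmt was at -0.083.

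Rab effectors had positive values for 11 of 42 genes (median log2 fold change -0.075), and 0 of 42 had an unadjusted p under 0.05. Over all genes 50.2% were positive and 3.64% had such a p by edgeR. Rab11fip1, a partner of Rab11 in recycling, stood at 25.2 ± 3.36 CPM in STAT3+ CM and 30.9 ± 2.28 CPM in STAT3- CM (log2 fold change -0.30, SE 0.14). The other 3 of the 4 smallest p-values were those of Rab11fip5 (-0.97), the autophagy receptor gene Optn (-0.50) and Sytl2 (-0.47), whose protein binds Rab27a on lytic granules, all with negative log2 fold changes. Rab11fip5, which averaged 0.494 ± 0.115 CPM in STAT3+ CM and 0.987 ± 0.562 CPM in STAT3- CM, was at -0.46 without STAT3- CM replicate 3, and Optn at -0.33. Sytl2 was at -0.21 without STAT3- CM replicate 1. Genes of granule docking and fusion had positive values for 11 of 28 genes (median log2 fold change -0.0036). Stx8, a SNARE of late endosomes, stood at 38.1 ± 3.27 CPM in STAT3+ CM and 31.4 ± 1.08 CPM in STAT3- CM, with groups that did not overlap (log2 fold change 0.28, SE 0.12; edgeR adjusted p = 0.989). Stx3 (-0.73), Sytl2 and the motor gene Myo5a (-0.36) had negative values. Stx3, at 0.578 ± 0.207 CPM in STAT3+ CM and 0.979 ± 0.353 CPM in STAT3- CM, had a log2 fold change of -0.41 without STAT3- CM replicate 1, and Myo5a had -0.19 without STAT3+ CM replicate 2.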

How the data were processed

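The authors deposited a table of unnormalised read counts, with genes in rows and the libraries in columns. Tools in the submitters' processing notes are FastQC, TopHat2 2.0.10, Bowtie 1.0.0, SAMtools 0.1.19 and Cufflinks 2.2.1, with build GRCm39. What counted the reads, with which annotation and strand setting, is not given in the sources used here. Counts of close relatives (Rab1a and Rab1b, Rab5a to Rab5c), and of Rab10 and Rab26, which have antisense partners, are therefore less certain. The lowest gene total was 40.

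After filterByExpr 14319 genes and all 62 members were left, with TMM factors of 0.9605 to 1.06. The 3 libraries of each group were compared in edgeR 4.0.16 (R 4.3.3) with its two-sided robust quasi-likelihood test. Benjamini-Hochberg adjustment covered every gene tested, calls were made at 0.05, and an SE is the size of the log2 fold change divided by the root of F. Log2 CPM used a prior count of 2. On simulated counts of 14481 genes, edgeR called 28.4% of those given a 1.5-fold change, 66.2% at 2-fold and 95.2% at 4-fold, and 12 of its 137 calls were false. The simulation changed 67, 71 and 62 genes by these sizes. The adjusted threshold depends on how many genes differ, and edgeR called 0 genes of the real counts. These shares are therefore not the power of the real comparison.

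Exon lengths are GENCODE unions (GRCm38), found for all 62 members. Members, roles and gene lists were chosen with earlier results of these data known. Named with values were all Dennd genes, the 10 Rab genes with the smallest p, the partner Rabs of DENN branches, Rab27a, Rab7, their close relatives, and 4 genes by p of each list. Other genes were named after their values were seen. Alternatives were other scalings, filters and tests (DESeq2 1.42.0, limma 3.58.1), a replicate block, and libraries left out.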

Additional observations from a re-analysis of the deposited data

How the results depend on the processing

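By edgeR's quasi-likelihood test 0 members and 0 genes passed, with 521 genes at an unadjusted p under 0.05; DESeq2 called 48 genes and 1 member, limma-voom with sample quality weights 16 and 1, limma-voom 0 and 0, and edgeR after dropping both STAT3- CM replicate 3 and STAT3+ CM replicate 1 gave 10 and 1. Leaving out each library in turn gave 0 to 18 genes and 0 to 1 members. The member was Dennd5a each time. The members' median log2 fold change of 0.0061 was -0.041 under library totals only, which moved the median of all genes to -0.042, and -0.031 to 0.045 with each library left out. The replicate block gave 0 genes and 0 members (Dennd5a adjusted p = 0.134 by edgeR). Libraries of equal number correlated at -0.261, 0.281 and 0.182 after each group's mean was removed. So few values cannot decide whether the numbers pair the libraries, and the labels do not say. Some log2 fold changes took the other sign, those of Dennd4a, Dennd4c, Dennd5b and Dennd1c among them, and the cause was not tested. With 1 library, or the pair above, left out the ranges were Dennd11 -0.18 to 0.12, Dennd1a -0.16 to 0.073, Dennd1c -0.33 to 0.025, Dennd2d -0.051 to 0.035, Dennd4a -0.56 to 0.031, Dennd4c -0.45 to 0.041, Dennd5b -0.51 to 0.089, Dennd6a -0.093 to 0.22, Dennd6b -0.20 to 0.14, Rab10 -0.022 to 0.11, Rab12 -0.12 to 0.046, Rab14 -0.057 to 0.015, Rab35 -0.047 to 0.054, Rab4b -0.054 to 0.30, Rab6b -0.17 to 0.38, Rab7 -0.030 to 0.070. Other members whose sign turned had, with 1 library left out, Rab15 -0.29 to 0.30, Rab19 -0.26 to 0.25, Rab1a -0.0028 to 0.11, Rab1b -0.10 to 0.036, Rab22a -0.094 to 0.035, Rab23 -0.22 to 0.0025, Rab32 -0.14 to 0.33, Rab33b -0.12 to 0.065, Rab34 -0.27 to 0.57, Rab3a -0.13 to 0.32, Rab3d -0.22 to 0.23, Rab5b -0.18 to 0.081, Rab8b -0.13 to 0.056. The values were, with quality weights, Dennd11 0.0074, Dennd1a 0.0066, Dennd2d -0.027, Dennd6b 0.052, Rab35 -0.022; with library totals only Dennd10 -0.0062, Dennd2d -0.041, Rab35 -0.030, Rab6b -0.041; with at least 1 CPM in 3 libraries Dennd2d -0.0030; and with upper quartile scaling Rab14 4.1e-05. Low counts limit Rab44, Rab26, Rab13 and Rab42.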

Other observations

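Symbols left out by the rule include RNAs from the strand opposite a Rab gene. Rab10os stood at 16.6, 18.1 and 15.3 CPM in STAT3+ CM, against 19.1, 16.6 and 17.9 CPM in STAT3- CM (log2 fold change -0.10, SE 0.14). Rab26os stood at 6.87, 7.76 and 6.48 CPM in STAT3+ CM, against 5.63, 7.15 and 5.91 CPM in STAT3- CM (log2 fold change 0.17, SE 0.19), and had more reads than Rab26 itself in each library. Since the strand setting of the counts is not known, reads of these RNAs and of their partner genes cannot be told apart. Rab5if, which is not a Rab despite its symbol, stood at 147, 193 and 153 CPM in STAT3+ CM, against 160.2, 165 and 121 CPM in STAT3- CM (log2 fold change 0.14, SE 0.16).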
